A study of Homo sapiens with 2 samples.

Results

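The 10 Frizzled genes, FZD1 to FZD10, were examined in a capture bisulfite sequencing series of 2 libraries, 1 from each of 2 related leukemia cell lines. The family was chosen by the measured methylation of FZD5, an exon of which differed completely between the libraries, so the FZD5 values given here are a description and are not tested. All 10 genes held CpG cytosines covered by at least 5 reads in both libraries, called shared sites here. They are 10 of 19120 protein-coding genes with at least 5 shared sites between 1500 bp upstream of the transcript start and the end of the gene. The Frizzled loci held 1482 shared sites of 3168726 in all.

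SKNO-1 is an acute myeloid leukemia line with the t(8;21) translocation, which fuses RUNX1 (AML1) to RUNX1T1 (ETO). SKNO1-siAE is a line derived from SKNO-1 in which AML1-ETO was knocked down by RNA interference. The silencing sequence, siAGF1, targets the fusion transcript and was brought in by lentivirus (pRRLcPPT.hPGK). Both lines were kept in the same medium, and the series set the line with the fusion beside the line in which it was silenced. Each line had 1 library, so no spread between replicates could be measured, and infection, selection of a derived line and loss of the fusion cannot be told apart. Statistical tests on reads compare these 2 libraries and not the conditions. The files hold no expression values, so the cell type and the silencing could not be checked against RNA.

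Frizzled proteins are cell-surface receptors that cross the membrane several times and bind Wnt ligands through an extracellular cysteine-rich domain. With the co-receptors LRP5 and LRP6 they recruit Dishevelled proteins, which spare beta-catenin from destruction so that it can act with TCF and LEF factors in the nucleus. Other Frizzled signals pass through Dishevelled to the cell skeleton and to planar cell polarity. Wnt signaling is known for its part in the self-renewal of blood and leukemia stem cells. Methylation of CpG cytosines at a promoter usually goes with silence of the gene, whereas methylation of the gene body is common in genes of either state.

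The 2 libraries held 4713346 sites in SKNO-1 and 4694016 in SKNO1-siAE, with a mean depth of 17.7 and 17.5 reads per site. The methylation level of a site is the methylated share of its reads. Averaged over all shared sites it was 0.587 for SKNO-1 and 0.655 for SKNO1-siAE. The Frizzled loci had a median depth of 14 and 15 reads at their shared sites. A further 674 sites passed 5 reads in SKNO-1 alone and 891 in SKNO1-siAE alone. At the threshold itself, 169 shared sites had exactly 5 reads in at least 1 library. These averaged 0.510 (SKNO-1) and 0.659 (SKNO1-siAE). The Wilson intervals below cover counting error only. They are too narrow for a group of neighboring sites, since 1 read spans several CpGs and the reads carried no molecular identifiers.

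The FZD5 sequence is shown first because it carries the complete difference. The other sequences follow, from a promoter, the edge of a start and a coding exon. A stretch is a run of at least 5 shared sites, no more than 300 bp apart, whose smoothed differences all reached 0.2 in 1 direction. Sequences are given from 5′ to 3′ on the strand of the gene, from the GRCh37 (hg19) genome. Capitals mark the CpGs measured in both libraries.
FZD5, coding exon, minus strand, chr2:208633287-208633411: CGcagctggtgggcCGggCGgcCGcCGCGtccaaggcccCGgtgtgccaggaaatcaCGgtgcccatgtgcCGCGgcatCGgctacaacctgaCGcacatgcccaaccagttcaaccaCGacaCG
FZD4, promoter edge, minus strand, chr11:86666438-86666488: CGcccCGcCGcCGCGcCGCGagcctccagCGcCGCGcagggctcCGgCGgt
FZD9, promoter, plus strand, chr7:72847886-72848015: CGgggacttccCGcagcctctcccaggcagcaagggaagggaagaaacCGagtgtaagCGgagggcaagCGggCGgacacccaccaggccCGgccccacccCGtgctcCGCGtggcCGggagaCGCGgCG
FZD2, coding exon, plus strand, chr17:42635199-42635261: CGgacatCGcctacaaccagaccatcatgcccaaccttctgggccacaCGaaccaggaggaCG
The FZD5 run of 125 bases held 14 CpGs, all of them measured, and 68.8% of its bases were G or C. The FZD4 run of 51 bases held 12 measured CpGs, the FZD9 run of 130 bases 14, and the FZD2 run of 63 bases 4.

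FZD5 lies on chromosome 2 (208627322 to 208634630, minus strand, ENSG00000163251) and encodes its receptor in 1 coding exon. The stretch covers codons 18 to 59, near the amino-terminal end of the protein. In SKNO-1, 0 of 131 site reads were methylated at its 21 sites. In SKNO1-siAE, 147 of 147 site reads were methylated at the same sites. The libraries therefore did not overlap at any of the 21 sites, the level being 0 throughout SKNO-1 and 1 throughout SKNO1-siAE. A count of 0 of 131 allows a share of up to 0.0229 if the site reads are taken as separate. At a single site of median depth 7 it allows up to 0.429.

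The depth behind this difference was low in both libraries. Every site of the FZD5 coding stretch had 7 reads in SKNO1-siAE, and the SKNO-1 sites had 5 to 7. The 7 sites on the plus strand had 5 reads each in SKNO-1, and the 14 sites on the minus strand had 6 or 7. All 21 sites were unanimous in both libraries, each read at a site giving the same call. How many separate DNA fragments stand behind these reads was not tested.

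A second FZD5 stretch lay in the non-coding part of the first exon, 336 to 477 bp after the start. It held 16 sites on 1 strand, at chr2:208634153-208634294. In SKNO-1, 0 of 89 site reads were methylated. In SKNO1-siAE, 69 of 122 were methylated, a share of 0.566 (Wilson 95% interval 0.477 to 0.650). The SKNO1-siAE sites did not hold intermediate levels, since 8 were at 1, 7 were at 0 and 1 lay between. They had 7 or 8 reads each.

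The FZD5 promoter was nearly fully methylated in both libraries. Its 79 shared sites, all of them more than 750 bp upstream of the start, averaged 0.971 for SKNO-1 and 0.967 for SKNO1-siAE. Within 500 bp on either side of the start only the first-exon stretch and its neighbors were shared, with a difference of −0.493. Beyond the coding stretch, methylation was again high in both libraries, at 1 and 1 over 12 sites from 2500 to 2749 bp and at 0.962 and 1 over 15 sites from 2750 to 2999 bp. The FZD5 low levels of SKNO-1 were thus found from 250 to 1499 bp after the start. From 500 to 749 bp no site was shared, and the 7 sites of SKNO-1 and the 10 of SKNO1-siAE there were all at 0. From −500 to −251 bp, 7 sites of SKNO-1 were at 0, and SKNO1-siAE had none of 5 reads.

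Over all FZD5 exons, 85 shared sites averaged 0.525 for SKNO-1 and 0.876 for SKNO1-siAE, a difference of −0.352. It was −0.167 with pooled reads, and it turned to 0.029 at 10 or more reads per site. In the coding part alone, 43 sites had 0.508 and 1. Of the exon's CpG cytosines, 13.9% were shared, and 141 more passed the depth minimum in SKNO1-siAE alone against 45 in SKNO-1 alone. The read counts of the surrounding 5 Mb differed in the same sense. In the window from 205 to 210 Mb of chromosome 2, SKNO-1 had 0.503 times the site reads of SKNO1-siAE. This ratio and those that follow are relative to all site reads of each library. The neighboring window, which holds FZD7, had a ratio of 0.537, whereas those of the other 8 members lay between 1.02 and 1.36. The part of this ratio in the FZD5 and FZD7 differences was not tested.

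**Figure D1:**
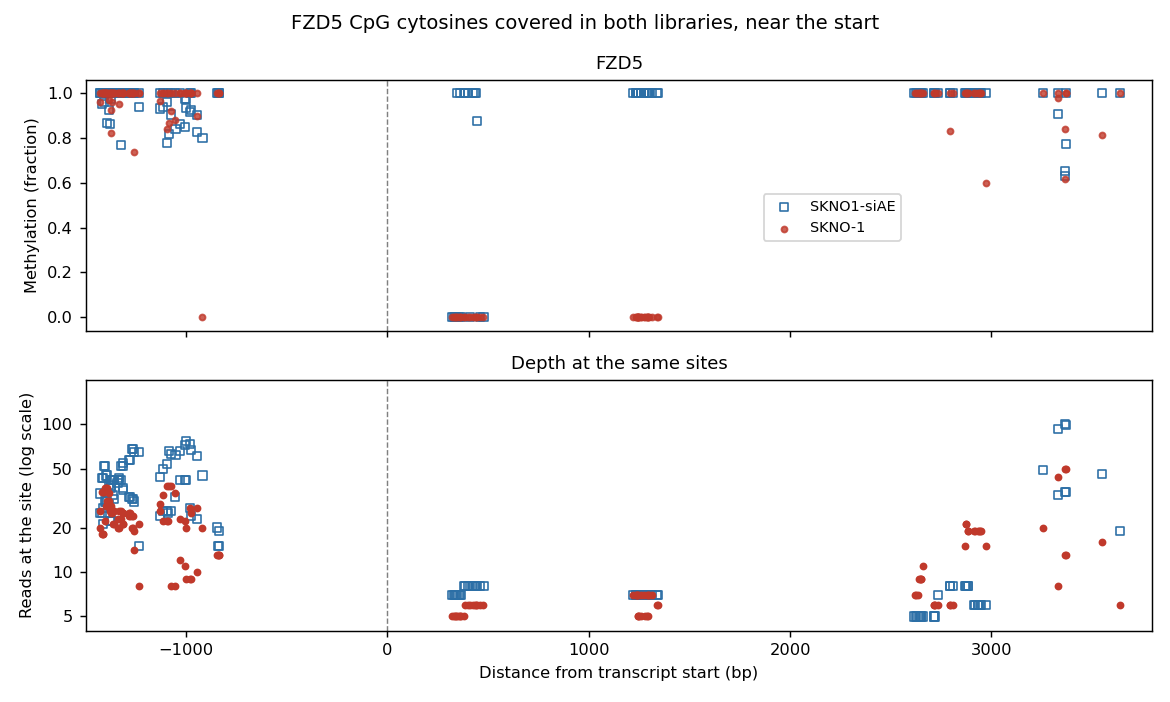
Methylation (upper panel, fraction of reads) and read depth (lower panel, log scale) at each FZD5 CpG cytosine covered in both libraries within the plotted range, against distance from the transcript start in bp; filled circles are SKNO-1 and open squares SKNO1-siAE. The coding stretch from 1219 to 1342 bp sits at 0 in SKNO-1 and at 1 in SKNO1-siAE, on 5 to 7 reads per site.

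Across the promoters of the family, 3 were lower in SKNO-1 by at least 0.2, 0 were higher and 7 were neither. Which promoters were lower depended on the window and the sites. FZD4 fell short of 0.2 with pooled reads (−0.196), with the strands of a CpG summed (−0.168), with the own sites of each library (−0.195) and at 10 or more reads, where it was 0. Upstream of the most upstream start of each gene, FZD6 fell short. Within 500 bp on either side of the start 4 promoters were lower, FZD4, FZD5, FZD6 and FZD8, and FZD9 was not. Of 17291 protein-coding genes with at least 5 shared promoter sites, 15.0% were lower and 3.81% were higher by the same measure. The median promoter difference (SKNO-1 minus SKNO1-siAE) was −0.040 for the Frizzled genes and −0.0081 for all genes. In exons, 3 Frizzled genes were lower, 1 was higher and 6 were neither, beside 11.4% lower and 2.77% higher of 16550 genes. The median exon difference was −0.045, and −0.0090 over all genes. The count of lower exons was 1 at 10 or more reads per site and 1 with pooled reads, and that of higher exons was 0 with pooled reads. The exon counts include FZD5, which the choice of members used. With 10 genes, these counts are given as a description.

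**Figure D2:**
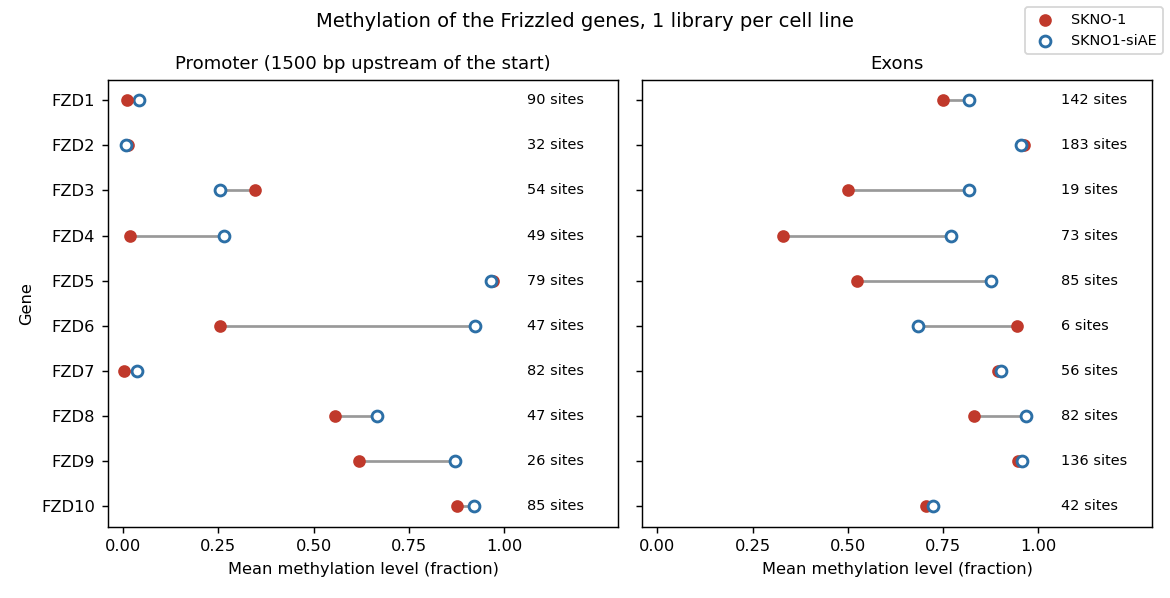
Mean methylation level (fraction, horizontal axis) of the promoter and the exons of each Frizzled gene; filled circles are SKNO-1, open circles SKNO1-siAE, with the number of shared sites at the right. FZD4, FZD6 and FZD9 promoters and FZD3, FZD4 and FZD5 exons sit farther left in SKNO-1, and the 6 sites of the FZD6 exons farther right.

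**Figure D3:**
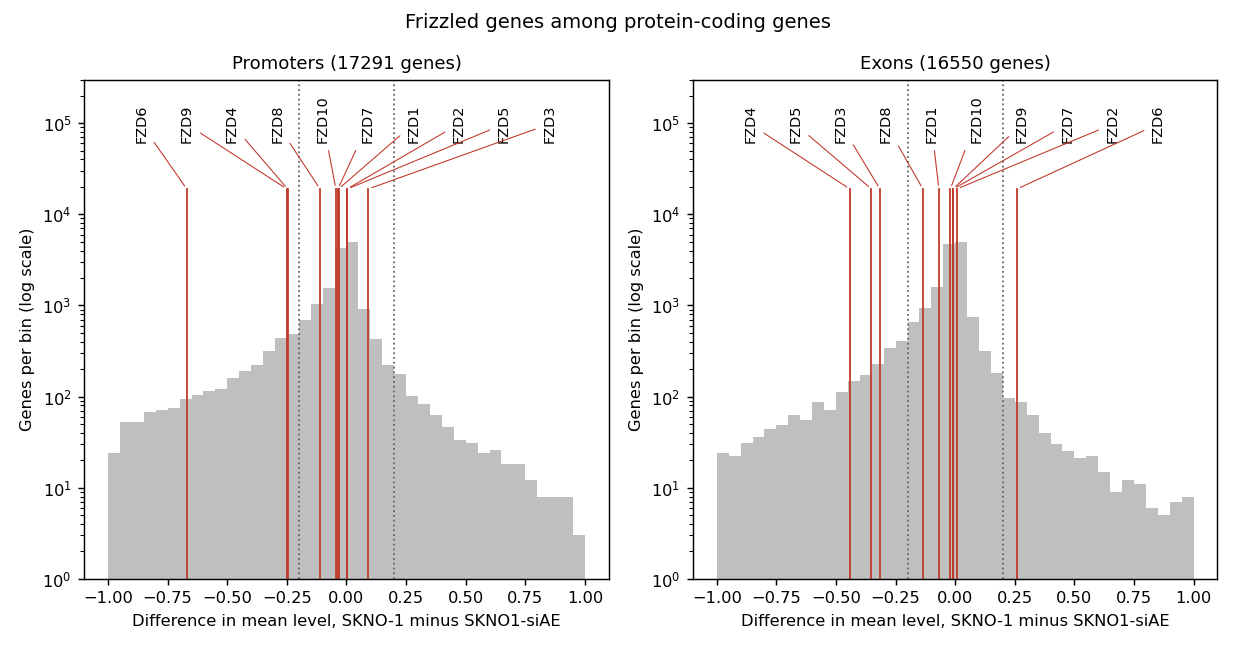
Number of protein-coding genes (log scale) by the difference in mean level, SKNO-1 minus SKNO1-siAE, for promoters and exons; vertical lines mark the Frizzled genes and dotted lines −0.2 and 0.2. FZD6 at −0.670 is the most shifted Frizzled promoter and FZD4 at −0.442 the most shifted Frizzled exon value.

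At single sites, 212 of the 1482 Frizzled sites were lower in SKNO-1 and 55 were higher (a difference of 0.2 or more that passed Fisher's exact test, adjusted by Benjamini-Hochberg across every shared site). These are 14.3% and 3.71% of the sites, beside 11.7% and 4.40% of all shared sites. With 10 or more reads required the counts were 81 lower and 22 higher, and with Bonferroni adjustment 30 and 6. Without FZD5, 180 of 1318 sites were lower, or 13.7%.

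The loci held 22 stretches, of which 16 were lower in SKNO-1 and 6 were higher. A lower stretch was found in 9 of the 10 genes, all but FZD2, and a higher one in 4, FZD1, FZD2, FZD3 and FZD7. Of 19120 protein-coding loci, 50.4% held a lower stretch and 29.0% a higher one. These shares take any locus with at least 5 shared sites, whereas the Frizzled loci held 74 to 232. Lower stretches made up 72.7% of the Frizzled stretches and 76.8% of the 50540 stretches of the genome. The lower counts include FZD5 and its stretches, which the choice of members used. When 10 reads were required in both libraries, 7 of the 22 kept at least 5 sites. The other 15, those of FZD5 included, could not be measured at that depth.

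The FZD3 and FZD6 receptors are known for planar cell polarity. FZD6 (chromosome 8, 104310661 to 104345094, plus strand, ENSG00000164930) had the largest promoter difference of the family. Its 47 promoter sites averaged 0.254 for SKNO-1 and 0.924 for SKNO1-siAE. The difference came from a stretch of 40 sites at −746 to −122 bp from the start (chr8:104310380-104311004). There, 249 of 1159 site reads were methylated in SKNO-1, a share of 0.215 (Wilson 95% interval 0.192 to 0.239). In SKNO1-siAE, 1055 of 1139 were methylated, a share of 0.926 (0.910 to 0.940). The SKNO-1 sites spanned 0 to 0.882 and the SKNO1-siAE sites 0.267 to 1. Of the 40 sites, 36 passed the site test, all lower in SKNO-1.

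This FZD6 stretch was among the better covered, with a median depth of 21 reads in SKNO-1 and 23 in SKNO1-siAE. Over the 25 sites where both libraries had 10 or more reads, the levels were 0.209 and 0.914. The stretch overlaps an exon of the antisense gene BAALC-AS1 and includes the most upstream FZD6 start, so a level there cannot be given to 1 of these transcripts. Measured upstream of that most upstream start, the FZD6 promoter difference was −0.184. The flanking site 40 bp farther upstream was methylated in both libraries, with 61 of 76 reads in SKNO-1 and 82 of 93 in SKNO1-siAE. The next shared site on the other side, 425 bp downstream, had 0 of 5 and 5 of 5, so the drawn end at −122 bp lies at a gap between shared sites.

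A short FZD6 stretch in the first intron had 5 sites on 5 to 9 reads, with levels of 0.317 and 0.760. Around it, from 250 to 499 bp, the 9 shared sites had 0.490 and 0.867. Over the own sites of each library, SKNO-1 had 0.779 at 32 sites there and SKNO1-siAE 0.892 at 13. The FZD6 exons were the only Frizzled exons higher in SKNO-1 by at least 0.2 at shared sites, with 0.945 and 0.685 over 6 non-coding sites near the end of the gene. The difference was 0.174 with pooled reads and 0.056 with the own sites of each library. The difference at shared sites came from 1 CpG, 33683 bp after the start. On the plus strand SKNO-1 had 50 of 56 reads methylated and SKNO1-siAE 7 of 66 (Fisher's exact test, adjusted p = 2.72e-17). On the minus strand 43 of 54 and 7 of 62 were methylated (Fisher's exact test, adjusted p = 2.89e-12). The other 4 FZD6 exon sites were at 0.951 or above in both libraries.

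FZD4 is the receptor for Norrin, and works with LRP5 and TSPAN12 in retinal vessels. The gene lies on chromosome 11 (86656721 to 86666437, minus strand, ENSG00000174804). Its stretch spanned the transcript start, from −50 to 152 bp (chr11:86666285-86666487), and held 56 sites, the most of any Frizzled stretch. In SKNO-1, 0 of 490 site reads were methylated, which allows a share of up to 0.00612. In SKNO1-siAE, 548 of 697 were methylated, a share of 0.786 (Wilson 95% interval 0.754 to 0.815). The SKNO1-siAE sites lay between 0.3 and 1, so the libraries did not overlap at any site, and 50 of the 56 sites passed the site test. The printed FZD4 bases are the part upstream of the start.

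The depth of the FZD4 stretch was 5 to 11 reads in SKNO-1 and 5 to 20 in SKNO1-siAE. Over the 6 sites where both had 10 or more, the levels were 0 and 0.767. The rest of the FZD4 promoter, beginning 334 bp farther upstream, was almost unmethylated at shared sites in both libraries, so that the whole promoter had 0.018 and 0.265 over 49 sites. Over its own sites, SKNO1-siAE had 0.297 at 16 sites from −500 to −251 bp, and SKNO-1 had 0 at 6. With 10 or more reads required per site, the FZD4 promoter left no site of the stretch and its difference was 0. The FZD4 exons had 0.329 and 0.771 over 73 sites, but their coding part, at a median depth of 55 and 33 reads, had 0.690 and 0.754. The FZD4 exon difference of −0.442 was −0.176 with pooled reads and −0.150 at 10 or more reads per site.

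**Figure D4:**
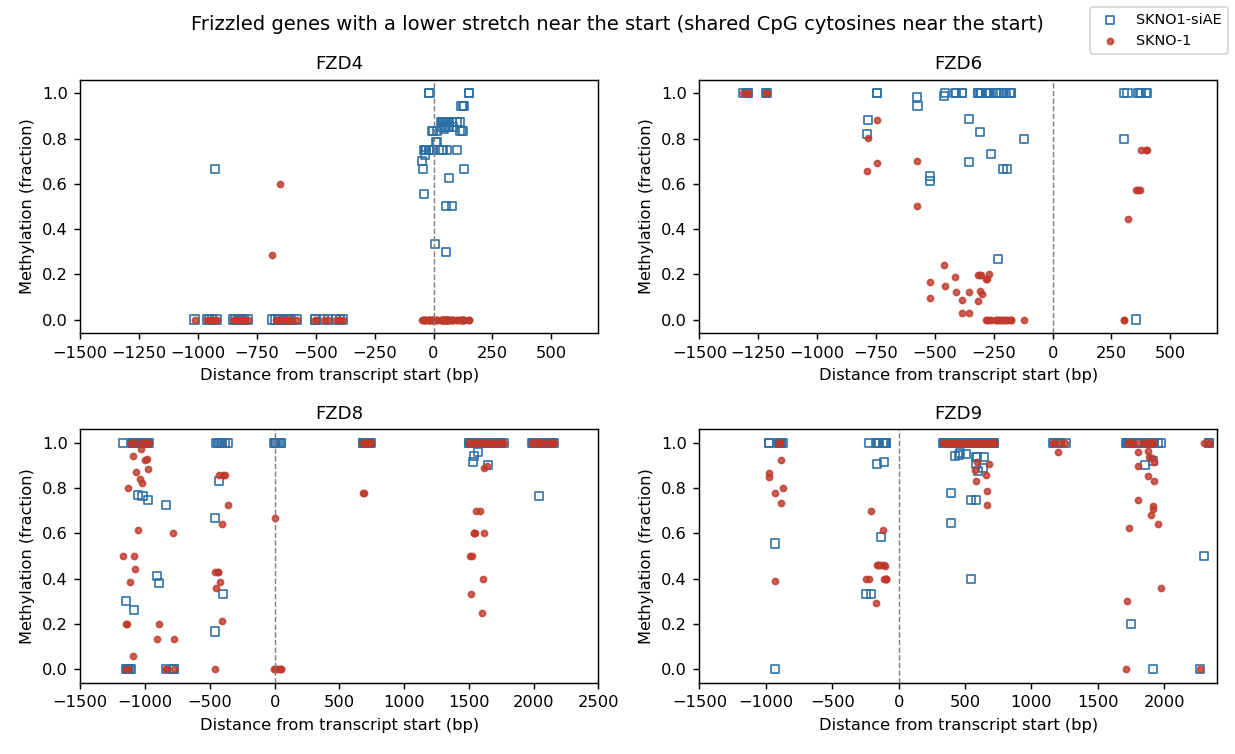
Methylation (fraction of reads) at each shared CpG cytosine of FZD4, FZD6, FZD8 and FZD9 within the plotted range, against distance from the transcript start in bp; filled circles are SKNO-1 and open squares SKNO1-siAE. Near the FZD4 start all SKNO-1 sites are at 0 and SKNO1-siAE sites at 0.3 or above, and the FZD6 stretch ends at −122 bp.

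FZD8 and FZD5 form a subfamily. Both encode the receptor in 1 coding exon, as do FZD1, FZD2, FZD7, FZD9 and FZD10. FZD8 (chromosome 10, 35927175 to 35931224, minus strand, ENSG00000177283) also had a stretch at its start, from −3 to 49 bp. At its 8 sites, 4 of 48 site reads in SKNO-1 were methylated, a share of 0.0833 (Wilson 95% interval 0.0329 to 0.196), and 40 of 40 in SKNO1-siAE (0.912 to 1). Of the 8 sites, 7 were at 0 in SKNO-1 and all 8 were at 1 in SKNO1-siAE. The depth was 6 reads per site in SKNO-1 and 5 in SKNO1-siAE, on 1 strand. A second FZD8 stretch, from −462 to −395 bp, had levels of 0.460 and 0.80 over 10 sites. A pair of coding stretches covered codons 213 to 230 and 243 to 251. Both were partly methylated in SKNO-1, at 0.683 and 0.708, and nearly fully in SKNO1-siAE, at 0.986 and 1. Over whole parts, the FZD8 promoter had 0.556 and 0.667 and the exons 0.832 and 0.968, each a difference under 0.2. Within 500 bp on either side of the start, the FZD8 difference was −0.558.

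FZD4, FZD9 and FZD10 form another subfamily. FZD9 (chromosome 7, 72848108 to 72850450, plus strand, ENSG00000188763) lies in the region deleted in Williams-Beuren syndrome and takes part in B-cell development in mice. Its promoter had 0.620 in SKNO-1 and 0.870 in SKNO1-siAE over 26 sites, a difference of −0.250. It was −0.482 at 10 or more reads per site and −0.111 within 500 bp on either side of the start, under 0.2. The stretch printed above, from −222 to −94 bp, had 214 of 473 site reads methylated in SKNO-1, a share of 0.452 (Wilson 95% interval 0.408 to 0.497). In SKNO1-siAE, 139 of 152 were methylated, a share of 0.914 (0.859 to 0.949). SKNO-1 sites lay between 0.294 and 0.70, with 0 of 14 unanimous, whereas 10 of 14 SKNO1-siAE sites were at 1. Here SKNO-1 was the deeper library, with a median of 35 reads against 12. Of the 14 sites, 9 passed the site test, and the 9 sites where both libraries had 10 or more reads averaged 0.453 and 0.934. The FZD9 exons were methylated in both, at 0.948 and 0.957 over 136 sites.

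FZD10, an antigen of synovial sarcoma, lies on chromosome 12 (130647004 to 130650285, plus strand, ENSG00000111432). Its promoter was methylated in both libraries, at 0.876 and 0.921 over 85 sites, and its exons had 0.704 and 0.725 over 42. Its single stretch, of 5 sites about 1500 bp upstream and within FZD10-AS1, had 12 of 45 site reads methylated in SKNO-1 and 38 of 47 in SKNO1-siAE. The adjoining sites went the other way, with 5 of 7 against 3 of 11 reads methylated 15 bp before it and 5 of 5 against 1 of 7 reads 18 bp after it. Toward the end of the gene, from 2500 to 2999 bp after the start, FZD10 sites were low in both libraries, at 0 and 0.247 over 5 sites and then at 0.262 and 0.147 over 4.

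FZD1, FZD2 and FZD7 form a further subfamily. At shared sites, their promoters were almost unmethylated and their exons largely methylated in both libraries. The promoter levels were 0.0089 and 0.042 for FZD1 over 90 sites, 0.012 and 0.0087 for FZD2 over 32, and 0.0016 and 0.037 for FZD7 over 82. The exon levels were 0.749 and 0.818 for FZD1, 0.962 and 0.955 for FZD2, and 0.894 and 0.902 for FZD7. At shared sites none of these 6 parts differed by 0.2. With the own sites of each library, the FZD7 exon difference was 0.404 in place of −0.0079, since the sites covered were not the same. Only 56 sites, 9.36% of the CpG cytosines of the FZD7 exon, were shared. The 162 exon sites of SKNO1-siAE alone averaged 0.384. In the FZD1 exon 24.4% of the CpG cytosines were shared. Its 56 sites of SKNO-1 alone averaged 0.315 and its 136 of SKNO1-siAE alone 0.451. From 0 to 749 bp after the FZD7 start SKNO-1 had no site of 5 reads, whereas SKNO1-siAE had 45, 36 and 11 sites in successive windows of 250 bp, at levels of 0.0037, 0 and 0. These were the 3 Frizzled promoters under 0.1 in both libraries, as were 5400 of the 17291 promoters measured.

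FZD1 (chromosome 7, 90893748 to 90900641, plus strand, ENSG00000157240) held stretches in both directions. The lower one in the coding part covered codons 162 to 302 of the single exon (chr7:90894681-90895101). There, 20 of 129 site reads were methylated in SKNO-1, a share of 0.155 (Wilson 95% interval 0.103 to 0.227), and 243 of 271 in SKNO1-siAE, a share of 0.897 (0.855 to 0.928). Of its 19 sites, 14 were at 0 in SKNO-1 and 0 were at 0 in SKNO1-siAE. The depth was 6 to 11 reads in SKNO-1 and 11 to 19 in SKNO1-siAE. The nearest shared site before it, 329 bp away, was at 0 in both libraries, and the site 28 bp after it was at 1 in both. Over its own sites, SKNO1-siAE had 0.346 at 17 sites from 750 to 999 bp and 0.504 at 43 from 1000 to 1249 bp. The shared sites of these windows had 0.898 and 0.893 in SKNO1-siAE. From 1250 to 1499 bp the 34 own sites of SKNO1-siAE had 0.990. A higher stretch farther on, over codons 440 to 517, had 103 of 103 site reads methylated in SKNO-1 and 36 of 68 in SKNO1-siAE. Its difference lay on the plus strand, where SKNO1-siAE averaged 0.361 over 8 sites. The 2 minus-strand sites were at 1 in both libraries, and 0 of its 10 sites had 10 reads in both. The last stretch, upstream of the start from −783 to −567 bp, was also lower in SKNO-1, with 0 of 63 and 30 of 98.

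FZD2 (chromosome 17, 42634852 to 42638630, plus strand, ENSG00000180340) held the only stretch of its locus in the coding exon printed above, over codons 48 to 68, and it was higher in SKNO-1. At its 6 sites, 36 of 52 site reads were methylated in SKNO-1, a share of 0.692 (Wilson 95% interval 0.557 to 0.801). In SKNO1-siAE, 16 of 66 were methylated, a share of 0.242 (0.155 to 0.358). The site levels spanned 0.357 to 1 and 0 to 0.438, so the libraries overlapped. Of the 6 sites, 2 passed the site test. The nearest shared site before the stretch, 763 bp away in the promoter, was at 0 in both libraries, and the adjoining site after it was methylated, at 1 and 0.813.

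FZD7 (chromosome 2, 202898578 to 202903164, plus strand, ENSG00000155760) is a receptor of stem cells in the gut. In its coding exon, over codons 60 to 108, 27 of 63 site reads were methylated in SKNO-1, a share of 0.429 (Wilson 95% interval 0.314 to 0.551), and 50 of 55 in SKNO1-siAE, a share of 0.909 (0.804 to 0.961). The depth was 7 reads at every SKNO-1 site. A stretch beginning at −1794 bp, mostly outside the promoter as measured here and in an exon of the lncRNA ENSG00000289026, had levels of 0.178 and 0.873 over 19 sites. The 13 of them where both had 10 or more reads averaged 0.209 and 0.899. In the non-coding end of the exon a stretch of 7 sites was higher in SKNO-1, with 82 of 83 site reads methylated against 121 of 199. FZD7 shares with FZD5 the chromosome 2 region in which SKNO-1 had fewer reads.

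FZD3 (chromosome 8, 28351722 to 28431784, plus strand, ENSG00000104290) differed in opposite directions along its length. In the first intron, 558 to 779 bp after the start, 171 of 232 site reads were methylated in SKNO-1, a share of 0.737 (Wilson 95% interval 0.677 to 0.790), and 0 of 210 in SKNO1-siAE, which allows up to 0.0143. The SKNO-1 sites were 16 at 1, 6 at 0 and 2 between, on 5 to 19 reads. Of the 24 sites, 23 were on the plus strand, and the 1 on the minus strand was at 0 in SKNO-1. Only 1 site had 10 or more reads in both libraries. Over its own sites from 500 to 749 bp, SKNO-1 had 0.386 at 42 sites, whereas the 21 shared sites there had 0.762. The next stretch, 831 to 1009 bp after the start, had levels of 0.479 and 0 over 6 sites, at a median depth of 37.5 and 40 reads. In SKNO-1 its plus-strand sites averaged 0.624 and its minus-strand sites 0.334. The last higher stretch, in the promoter, had levels of 0.875 and 0.512 over 14 sites. Over the whole FZD3 promoter the levels were 0.346 and 0.254 when sites counted equally. When reads were pooled, so that deeper sites counted more, the promoter difference rose from 0.0918 to 0.343.

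The FZD3 intron was not higher throughout. Of its 46 shared sites, 21 were called higher and 6 lower, and farther from the start 3 sites at 3500 to 3749 bp had 0.047 and 0.982 and 2 sites at 12000 to 12249 bp had 0.043 and 0.989. The exons of FZD3 were lower in SKNO-1. They had 0.501 in SKNO-1 and 0.817 in SKNO1-siAE over 19 sites, at a median depth of 55 and 58 reads, the deepest of the Frizzled exon differences that were lower. Over codons 430 to 457, 345 of 517 site reads were methylated in SKNO-1, a share of 0.667 (Wilson 95% interval 0.626 to 0.707), and 431 of 442 in SKNO1-siAE, a share of 0.975 (0.956 to 0.986). Here SKNO-1 sites lay between 0.562 and 0.884, with 0 of 7 unanimous, and 6 of 7 passed the site test.

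Single FZD3 CpGs differed more. In the coding exon, the CpG 33749 bp after the start had 0 of 39 reads methylated in SKNO-1 and 14 of 14 in SKNO1-siAE on the plus strand, and 0 of 5 and 23 of 23 on the minus strand (Fisher's exact test, adjusted p = 3.82e-11 and 0.000162). In the non-coding end of the gene, the CpG 69396 bp after the start had 1 of 55 reads methylated in SKNO-1 and 63 of 63 in SKNO1-siAE (Fisher's exact test, adjusted p = 6.25e-30). Its minus strand had 4 of 30 and 45 of 53. These were chosen after their values were seen.

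**Figure D5:**
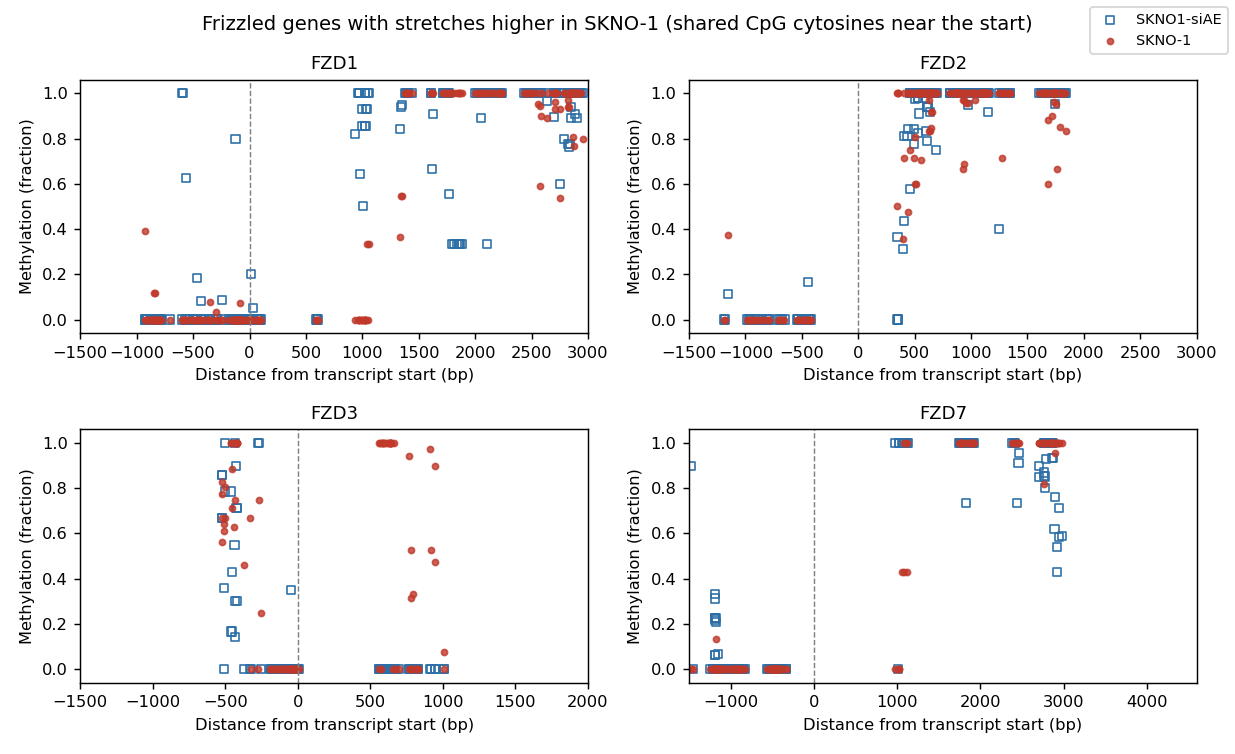
Methylation (fraction of reads) at each shared CpG cytosine of FZD1, FZD2, FZD3 and FZD7 within the plotted range, against distance from the transcript start in bp; filled circles are SKNO-1 and open squares SKNO1-siAE. The promoters of FZD1, FZD2 and FZD7 lie near 0 in both libraries, and the FZD3 intron from 558 to 779 bp holds SKNO-1 sites at 1 where all SKNO1-siAE sites are at 0.

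Sequence features, which the choice of members did not use, can be set beside these levels. All 10 Frizzled promoters had a CpG content, observed over expected, from 0.557 to 0.848, above the median of 0.514 over 20097 promoters. Of the RUNX core motif only the form TGTGGT was searched, on both strands of the 1500 bp upstream, and other forms were not. TGTGGT was found in 2 of the 10 Frizzled promoters, with 2 matches in FZD2 and 1 in FZD3, and in 56.1% of 20098 promoters.

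Within a library, the strands of a CpG lay at least 0.5 apart at 4.57% of all CpGs shared on both strands in SKNO-1 and at 4.13% in SKNO1-siAE. For FZD1, FZD2, FZD4, FZD5, FZD6 and FZD7 the share was 0 to 2.5% in SKNO-1 and 0 to 2.56% in SKNO1-siAE. It was higher for FZD3 (10.3% and 6.90%), FZD8 (20% and 10%, over 10 CpGs) and FZD10 (12.5% and 6.25%), and for FZD9 it was 1.61% and 4.84%. The FZD5 share includes the sites by which the members were chosen. All 7 CpGs of the FZD5 count that follows lie in its coding stretch, so that count was fixed by the choice. Of the CpGs measured on both strands that differed by at least 0.5 on either, the count that did so on both was 21 of 26 in FZD4, 7 of 7 in FZD5 and 12 of 13 in FZD6. It was 4 of 13 in FZD3, 2 of 3 in FZD2, 0 of 5 in FZD9, 0 of 4 in FZD8, 0 of 3 in FZD10 and 0 of 1 in FZD1 and in FZD7, beside 68740 of 183920 over all shared CpGs. The strands differed by at least 0.5 in opposite directions at 0 CpGs of the members, and at 1674 overall.

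The other genes of the pathway were described from lists of 54 genes. Of 50 promoters measured, 16 were lower in SKNO-1 by at least 0.2, 4 were higher and 30 were neither, beside the 15.0% lower and 3.81% higher of all promoters. Of 53 genes with measured exons, 9 were lower, 0 were higher and 44 were neither, beside 11.4% and 2.77% of all genes. The median differences were −0.081 for promoters and −0.031 for exons, and −0.0081 and −0.0090 over all genes. By role, the Wnt ligands, which bind Frizzled receptors, had 10 of 17 promoters lower and 0 higher, with a median of −0.236, beside 15.0% lower, 3.81% higher and a median of −0.0081 for all promoters. In their exons 2 of 19 were lower, with a median of −0.031. The nuclear effectors had 1 of 5 promoters lower, with a median of 0.021, and 2 of 6 exons lower, with a median of −0.074. The WLS gene, which serves ligand secretion, had a promoter difference of 0.34. The cytoplasmic relay, which includes the Dishevelled and destruction-complex genes, had 3 of 11 promoters lower and 0 higher, and 0 of 10 exons past 0.2. Among the co-receptors and related receptors, 1 of 7 promoters was lower and 2 were higher, and 3 of 8 exons were lower. The module that controls Frizzled turnover had 1 of 9 promoters lower and 1 of 9 higher, and 2 of 9 exons lower.

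In 7 pathway genes the promoter or the exons differed by at least 0.5, and all 7 were lower in SKNO-1. Over all genes, 4.50% of promoters and 2.92% of exons were lower by at least 0.5, and 0.902% and 0.701% were higher. With pooled reads 2 of the 7 fell short of 0.5, the CTNNB1 promoter at −0.436 and the PTK7 exons at −0.297. LGR5, an R-spondin receptor that slows the removal of Frizzled, had exon levels of 0 and 0.978 over 37 sites. SMO, a relative of the Frizzled receptors that serves Hedgehog signaling, had 0.0652 and 0.954 over 64 exon sites, whereas its promoter was higher in SKNO-1, at 1 and 0.667 over 6 sites. LEF1, a nuclear partner of beta-catenin, had 0.103 and 0.896 over 39 exon sites, and the receptor-like PTK7 had 0.196 and 0.758 over 26. In promoters, the scaffold AXIN1 had 0.0333 and 0.667 over 15 sites, the ligand WNT2B 0.0656 and 0.689 over 12, and CTNNB1, which encodes beta-catenin, 0.375 and 0.986 over 24. A difference close to that of the FZD5 coding stretch was thus also measured over the LGR5 exons, on 5 to 12 reads per site in SKNO-1.

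The co-receptors and Dishevelled genes were described whatever their difference. LRP6 had promoter levels of 0.196 and 0.540 over 38 sites, and exon levels of 0.570 and 0.520. LRP5 exons had 0.975 and 0.980 over 508 sites. The DVL1 promoter was at 0 in both libraries over 19 sites, and DVL1 exons had 0.720 and 0.735. DVL2 had promoter levels of 0.350 and 0.274, and DVL3 of 0.566 and 0.551, with exon differences of −0.020 and −0.0017. With pooled reads the exon differences were −0.144 for DVL2 and 0.165 for DVL3, and the DVL3 promoter difference turned from 0.014 to −0.065.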

How the data were processed

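Methylation was measured by methylC-capture sequencing (MCC-Seq) with SeqCap Epi probes in 2 libraries, 1 of SKNO-1 and 1 of SKNO1-siAE. The authors' notes name cutadapt 1.4.2, BSMAP 2.73 and hg19. The deposited files hold counts, the methylated and unmethylated read counts per CpG cytosine and strand. Capture and a minimum of 5 reads limit which CpGs can be seen.

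Genes were placed with GENCODE release 44 lifted to hg19. The level of a site was its methylated share, and a promoter (1500 bp upstream of the start) or exon value was the mean over at least 5 shared sites. Sites were tested by two-sided Fisher's exact test and adjusted by Benjamini-Hochberg across the 3168726 shared sites, then called where the libraries differed by 0.2 or more at an adjusted p under 0.05. Stretches were drawn on differences smoothed over 5 sites. Scripts were tested on simulated data. The tools were samtools 1.23.1 and Python 3.11.15 with matplotlib 3.10.9, pysam 0.24.0, numba 0.67.0, pandas 2.3.3, scipy 1.17.1 and numpy 2.4.6. Samples were grouped by their labels. Intervals are Wilson 95% intervals, and the limit of a count of 0 uses 3 counts.

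The members and the pathway lists were chosen with earlier results of these data known. All 10 Frizzled genes were named, and of the pathway genes the LRP5, LRP6 and DVL genes and up to 10 with a difference of at least 0.5. Alternatives covered depth, pooling, strands, windows, adjustment and smoothing.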

Additional observations from a re-analysis of the deposited data

How the results depend on the processing

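No paired analysis was possible because each cell line had 1 library, and no replicate could be left out. With at least 10 reads per site, the Frizzled exons lower by 0.2 in SKNO-1 fell from 3 to 1, as they did with pooled reads, the Frizzled sites called fell to 22 higher and 81 lower, the pathway promoters higher were 2 and the pathway exons higher 1, the FZD5 exon difference turned from −0.352 to 0.029, and the FZD5 coding stretch had 0 sites left, so that setting gave no value for it. Bonferroni adjustment left 6 Frizzled sites higher and 30 lower. With pooled reads, 1 Frizzled promoter (FZD3) and 2 pathway exons were higher and 0 Frizzled exons were. With the strands of a CpG summed or the coding part alone the count was also 0, because the FZD6 exons then had under 5 measured CpGs. With the own sites of each library, 2 pathway exons were higher. The count of lower Frizzled promoters was 2 to 4, of changing genes. The other 36 of 50 counts and FZD5 stretch values stayed within 1.5 times the count, or within the interval of the stretch, and the FZD5 stretch kept its 21 sites and its difference of −1 with smoothing over 3 sites or a gap of 100 bp. Among 115 values of single genes and stretches, 54 moved by no more than their counting interval, 60 by more, and 1 with a difference of at least 0.2, the FZD5 exon, reversed. Differences under 0.2 also changed sign, for the FZD2 exon and promoter, the FZD5 promoter (0.0039 to −0.493 within 500 bp of the start) and the FZD7 exon (−0.0079 to 0.102 at 10 reads, 0.051 with pooled reads and 0.404 with own sites). The stretches at 10 reads were added after the data were seen. Depth limits most stretches, 15 of 22 having under 5 sites at 10 reads; those of FZD4 and FZD5, the FZD8 start and the lower FZD1 and FZD7 coding stretches had 5 to 11 SKNO-1 reads per site.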
